A study of Danio rerio with 12 samples.

Results

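The sinus venosus (SV) of adult zebrafish nr2f1a aco mutants was compared with the WT SV across all genes counted by bulk RNA-seq, in which the transcripts of every cell type of a tissue are read as a mixture. The comparison used 4 of the 12 libraries of the series: 2 of the aco SV and 2 of the WT SV, assigned by the library title and the genotype label. Both groups were adults aged 6 months to 1.5 years in a mixed background, which the labels give as AB/TU and the study's methods as AB/TL for WT fish, and each library held tissue pooled from 20 fish. The other 8 libraries were 2 each of aco ventricle, WT ventricle, WT atrium and WT bulbus arteriosus (BA), the vessel that carries blood out of the ventricle. The aco (acorn worm) allele came from a chemical mutagenesis screen and is a deletion in the 5′-UTR of nr2f1a that leaves the gene transcribed, so the level of nr2f1a does not check the labels, and some function may remain. Adult aco hearts effectively lack atria, so what was dissected as aco SV is the enlarged venous structure next to the ventricle. For the mutant libraries, 2 further labels, tissue and source name, say WT, against the title and the genotype label. The labels do not say that the 2 libraries of a group came from separate fish, and p-values measure the spread between these libraries, which may be technical.

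The SV collects venous blood and passes it to the atrium, and in teleost fish its wall holds smooth muscle around an endothelial lining. Its border with the atrium carries the pacemaker myocardium, which starts each heartbeat through HCN and potassium channels under transcription factors such as Shox2. Nr2f1a is an orphan nuclear receptor of the COUP-TF family that atrial cardiomyocytes need to form and to keep their identity. In bulk tissue, fewer cells of a type and less RNA per cell cannot be told apart.

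Total counts were 28325098 and 31184243 in aco SV, the lowest of all 12 libraries, and 36088965 and 37508880 in WT SV. The libraries of the other groups held 33174661 to 60532949, and 1 read equalled 0.0229 to 0.0241 CPM in the SV libraries. CPM, read counts relative to sequencing depth, here use library sizes scaled by TMM, a normalization that centres the genes shared by all libraries. Log2 CPM across genes correlated at 0.916 between the aco SV libraries and at 0.956 between the WT SV libraries. In all 6 groups the gap between replicates was larger than read sampling alone gives (chi-square per degree of freedom, 184 to 317). The aco SV library 1 stood apart on the RUVs factor, a fitted measure of unwanted variation. Its value was 2.07, against -0.48 for aco SV library 2, -0.21 and 0.26 for WT SV, and -1.72 to 1.09 for the other libraries. The libraries came from more than 1 batch, some read from 1 end and some from both, and the batch of each library is not given in the sources used here, so batch and genotype cannot be told apart. As a check of the tissue, 12 cardiomyocyte markers summed to 2063 and 532 CPM in aco SV and 3190 and 2137 CPM in WT SV. They summed to 35570 to 141800 CPM in the 6 libraries of atrium and ventricle. The 10 smooth muscle markers summed to 1479 and 6207 CPM in aco SV and 3610 and 2793 CPM in WT SV. The gene nr2f1a itself had 13.1 and 24.6 CPM in aco SV, against 17.9 and 9.66 CPM in WT SV (log2 fold change 0.52 ± 0.39, adjusted p = 0.616 by edgeR). It had 73.7 and 66.2 CPM in WT atrium.

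Of 19145 genes tested, 295 (1.54%) differed between aco SV and WT SV at an adjusted p below 0.05 and are termed called. Genes lower in aco SV outnumbered those higher, with 239 lower (1.25%) and 56 higher (0.293%), while the median log2 fold change of all genes was -0.01 (quartiles, -0.55 and 0.47). Of the 58 lists examined, enterocyte markers and brush border genes had the lowest medians, and genes of exocrine pancreas, atrial and pacemaker myocardium and red cells were also among those called lower. Of the 56 called higher, 10 are described below as genes of the extracellular matrix and of collagen handling. The 4 libraries did not overlap between genotypes for 292 of the 295. These genes were chosen by a test on the same libraries, so this separation is no further support for them. Fold changes are log2 of aco SV over WT SV as fitted by the model with the RUVs factor. They can therefore differ from the ratio of the printed CPM, as for apoa1a, where the aco SV libraries lie far apart. The value after ± is an approximate standard error, the fold change divided by the square root of the F statistic of its test. It is unreliable where counts are near 0. Adjusted p-values come from the quasi-likelihood test of edgeR, adjusted over all genes tested by the Benjamini-Hochberg method. The calls depended on single libraries: 95 genes were called lower and 24 higher without aco SV library 1, 96 and 67 without aco SV library 2, 152 and 19 without WT SV library 1, and 142 and 4 without WT SV library 2. Without the RUVs factor 125 were called lower and 13 higher. A fit of the 4 SV libraries alone called 38 lower and 0 higher, DESeq2 called 695 lower and 316 higher, and all 295 kept their sign in every alternative that tested them.

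**Figure D1:**
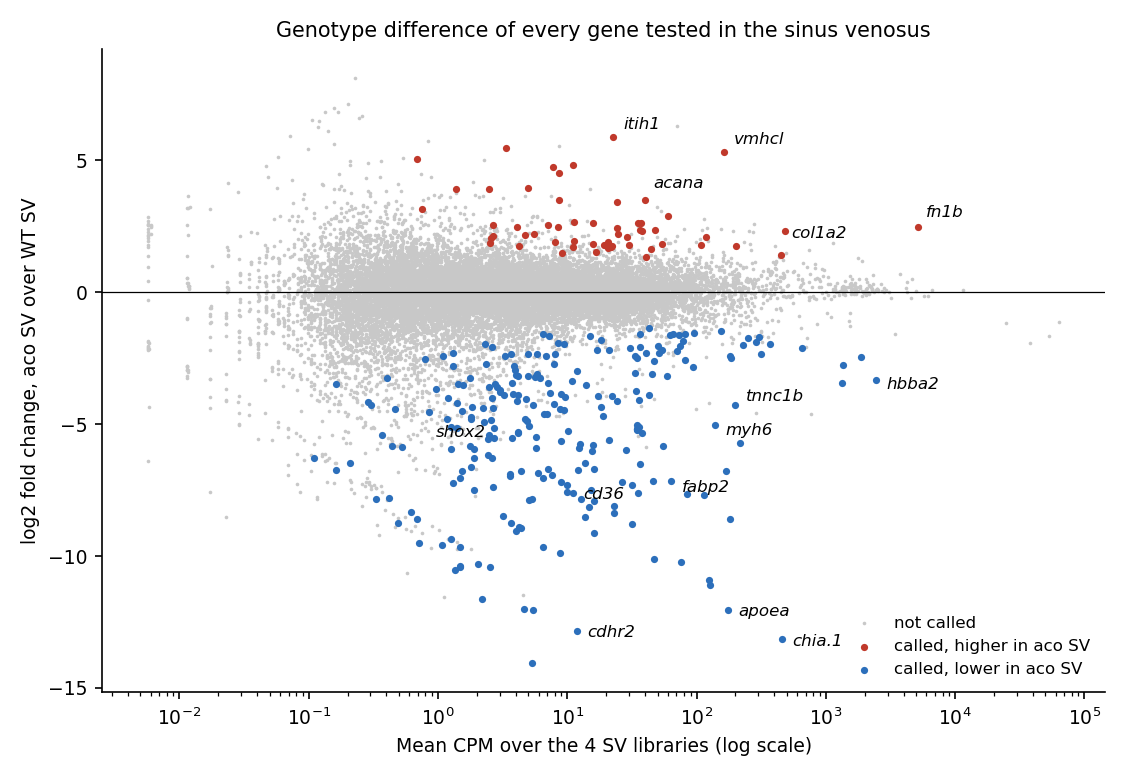
Each point is 1 of 19145 genes, with its mean CPM over the 4 SV libraries on a log x axis and its log2 fold change of aco SV over WT SV on the y axis. The 56 genes called higher in aco SV (red) reach a log2 fold change of 5.88 at itih1, and the 239 called lower (blue) include chia.1 at -13.16.

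Genes of the absorptive intestinal epithelium, the lining of the gut, were lower in aco SV. Goblet and mucous cell markers did not share this fall as a list. Of 7 tested 0 were called by edgeR (1 lower at an unadjusted p below 0.05, 0 by DESeq2), with a median of -0.62. They summed to 70.3 and 51.5 CPM in aco SV, against 69.6 and 140 CPM in WT SV. Of 18 enterocyte markers tested, 13 were called lower and 0 higher, and all 18 had negative fold changes. Their median log2 fold change was -6.29, beside -0.01 over all genes. Some of them, such as cdhr2 and fabp1b.1, had reads almost only in WT SV. Such genes entered the test through the WT SV libraries and could hardly have been called higher. The direction of the list and its median are therefore partly set by the filter. The summed level of the 18 markers was 61.0 and 14.2 CPM in aco SV, against 1358 and 1366 CPM in WT SV. In the other 8 libraries it was 2.60 to 63.4 CPM. So the WT SV libraries were high in this list. The upper end of the range elsewhere, 60.85 and 63.4 CPM in WT ventricle, was mostly rbp2a, at 58.9 and 61.1 CPM. In aco SV rbp2a had 4.05 and 4.24 CPM, so that range does not place the aco SV libraries at the level of the other tissues. The most abundant gene was chia.1, an acidic chitinase, with 0.160 and 0.0481 CPM in aco SV, against 937 and 893 CPM in WT SV (-13.16 ± 0.77, adjusted p = 1.38e-05). The WT level was 8670-fold (95% counting interval 4560 to 19000) higher, where the interval covers counting error only. Its paralog chia.2 had 0.137 and 0.0963 CPM in aco SV, against 277 and 226 CPM in WT SV (-10.92 ± 0.82, adjusted p = 0.000111). Its paralog chia.3 had 0.366 and 0.0722 CPM in aco SV, against 169 and 339 CPM in WT SV (-11.10 ± 0.76, adjusted p = 5.68e-05). Reads that near-identical copies share may have been divided between such genes. In the 8 other libraries chia.1 stayed at 0.0501 and 0.0536 CPM in WT atrium and 2.37 and 1.25 CPM in WT BA.

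Brush border genes, which build and cover the microvilli of absorptive cells, fell as well: 12 of 28 tested were called lower and 0 higher (median log2 fold change, -4.36). In this list also, members read almost only in WT SV, such as pdzk1, entered the test through those libraries. The microvillar cadherin cdhr2 had no read in aco SV, against 24.2 and 23.3 CPM in WT SV. It was at least 337-fold lower against a floor of 3 counts per library (adjusted p = 0.00526). The microvillar actin bundler vil1 had 0.641 and 0.457 CPM in aco SV, against 35.9 and 26.2 CPM in WT SV (-5.80 ± 0.87, adjusted p = 0.00739). Both genotypes were far apart and their replicates close for these genes. The peptidases of this surface, anpepa (adjusted p = 0.00208) and anpepb (adjusted p = 0.00268), and the scaffold pdzk1 (adjusted p = 0.00228) had log2 fold changes of -7.03, -7.31 and -8.15.

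Among 31 solute carriers of absorptive epithelia, 6 were called lower and 0 higher (median, -2.06). Here too some members, such as slc6a19a.1, were read almost only in WT SV and entered the test through those libraries. The sodium-glucose cotransporter slc5a1 had 0 and 0.0241 CPM in aco SV, against 7.93 and 9.13 CPM in WT SV, a single read over both mutant libraries (adjusted p = 0.00672). The neutral amino acid transporter slc6a19a.1 had no read in aco SV and 5.81 and 15.7 CPM in WT SV, at least 153-fold lower (adjusted p = 0.0036). Its paralog slc6a19a.2 was called too (adjusted p = 0.0354). The phosphate transporter slc34a2a likewise had no read in aco SV and 5.72 and 12.7 CPM in WT SV, at least 131-fold lower (adjusted p = 0.0106). In all of these the WT SV libraries differed from each other by less than 3-fold, and the aco SV libraries lay at or near 0. The dicarboxylate transporter slc13a2 had 0.275 and 0.650 CPM in aco SV, against 28.2 and 33.5 CPM in WT SV (-6.02 ± 0.79, adjusted p = 0.00521). The peptide transporter slc15a1b had 1.81 and 0.361 CPM in aco SV, against 10.8 and 8.92 CPM in WT SV (-4.26 ± 0.77, adjusted p = 0.0204).

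Some genes of lipid transport fell too, but not their list as a whole. Of 21 apolipoprotein genes, 6 were called lower and 0 higher, with a median of -0.47. The gene apoea, for an apolipoprotein E, had 0.183 and 0.0481 CPM in aco SV, against 431 and 274 CPM in WT SV (-12.03 ± 0.69, adjusted p = 1.38e-05), 3010-fold (95% counting interval 1640 to 6270) higher in WT SV. The apolipoprotein A-IV gene apoa4b.1 had 1.28 and 3.68 CPM in aco SV, against 289 and 386 CPM in WT SV (-6.77 ± 0.60, adjusted p = 0.000376). Its relatives apoa4a, apoa4b.2 and apoa4b.3 had log2 fold changes of -7.21, -8.58 and -8.80 (adjusted p = 0.00293, 0.00319 and 0.000438). The last of the 6, apoa1a, had 70.9 and 2.12 CPM in aco SV, against 356 and 444 CPM in WT SV (-5.72 ± 1.24, adjusted p = 0.0482), with the aco SV libraries far apart. The related apoa1b and apoa2, which the liver also makes, were not called. Both were highest in aco SV library 1, with 2118 and 243 CPM in aco SV, against 150.1 and 463 CPM in WT SV for apoa1b. Hepatocyte markers as a list summed to 8411 and 2740 CPM in aco SV and 3135 and 2634 CPM in WT SV, with 0 of 20 called by edgeR. There were 3 at an unadjusted p below 0.05 and 1 was called by DESeq2, and 5 were called higher without aco SV library 2.

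Of the genes that carry lipids inside or into enterocytes, the intestinal fatty acid binding protein gene fabp2 had 3.11 and 0.481 CPM in aco SV, against 115 and 138 CPM in WT SV (-7.16 ± 0.67, adjusted p = 0.000438). Its relative fabp1b.1 had 0 and 0.0241 CPM in aco SV, against 23.4 and 11.8 CPM in WT SV (adjusted p = 0.00379). The retinol-binding rbp2a had 4.05 and 4.24 CPM in aco SV, against 100.2 and 64.0 CPM in WT SV (-3.89 ± 0.82, adjusted p = 0.0431). The fatty acid receptor cd36 had 0.115 and 0.120 CPM in aco SV, against 20.6 and 23.7 CPM in WT SV (-7.60 ± 0.56, adjusted p = 0.00011). It was the 1 member called among 35 genes of fatty acid oxidation. The cholesterol transporter npc1l1 fell by 5.40 on the log2 scale (adjusted p = 0.00718). The tight junction gene cldn15la had 1.40 and 0.289 CPM in aco SV, against 78.3 and 46.1 CPM in WT SV (-7.29 ± 0.61, adjusted p = 0.000298). The epithelial cadherin cdh17 (-5.58 ± 0.80, adjusted p = 0.00653), the tetraspan gene tm4sf5 (-5.50 ± 0.80, adjusted p = 0.00672) and the gut hormone gene guca2b (-8.92 ± 1.07, adjusted p = 0.0107) were also lower. Of these, cdh17 was listed as a kidney tubule marker, so its fall is not specific to intestinal genes. It was the 1 called of 9 kidney tubule markers, of which 7 had negative fold changes (median, -1.81). The glucuronosyltransferase ugt1ab had 4.33 and 1.71 CPM in aco SV, against 102 and 114 CPM in WT SV (-5.84 ± 0.53, adjusted p = 0.000436). It was 1 of 7 called ugt1a genes with nearly the same counts, a locus whose gene models can share reads.

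Of the 29 called genes above, other than slc6a19a.2, which lost its call in all 4 fits (adjusted p = 0.0697 to 0.265), the calls held in every fit with a library left out for 15. Among these were the 3 chitinase genes, cdhr2, fabp2, apoea, cd36 and all 4 apoa4 genes. Without aco SV library 1, 27 stayed called, the others reaching an adjusted p of 0.0502 to 0.0965, and without aco SV library 2, 17 stayed (0.0553 to 0.269). Without WT SV library 1, 25 stayed (0.0572 to 0.0903), and without WT SV library 2, 22 stayed (0.0618 to 0.118). The enterocyte list had 13, 7, 11 and 11 members called lower without aco SV library 1, aco SV library 2, WT SV library 1 and WT SV library 2. In the same order the brush border list had 9, 7, 10 and 9, the solute carriers 4, 3, 5 and 2, and the apolipoproteins 8, 5, 5 and 5. Whether gut or kidney tissue was dissected with the WT SV was not tested.

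**Figure D2:**
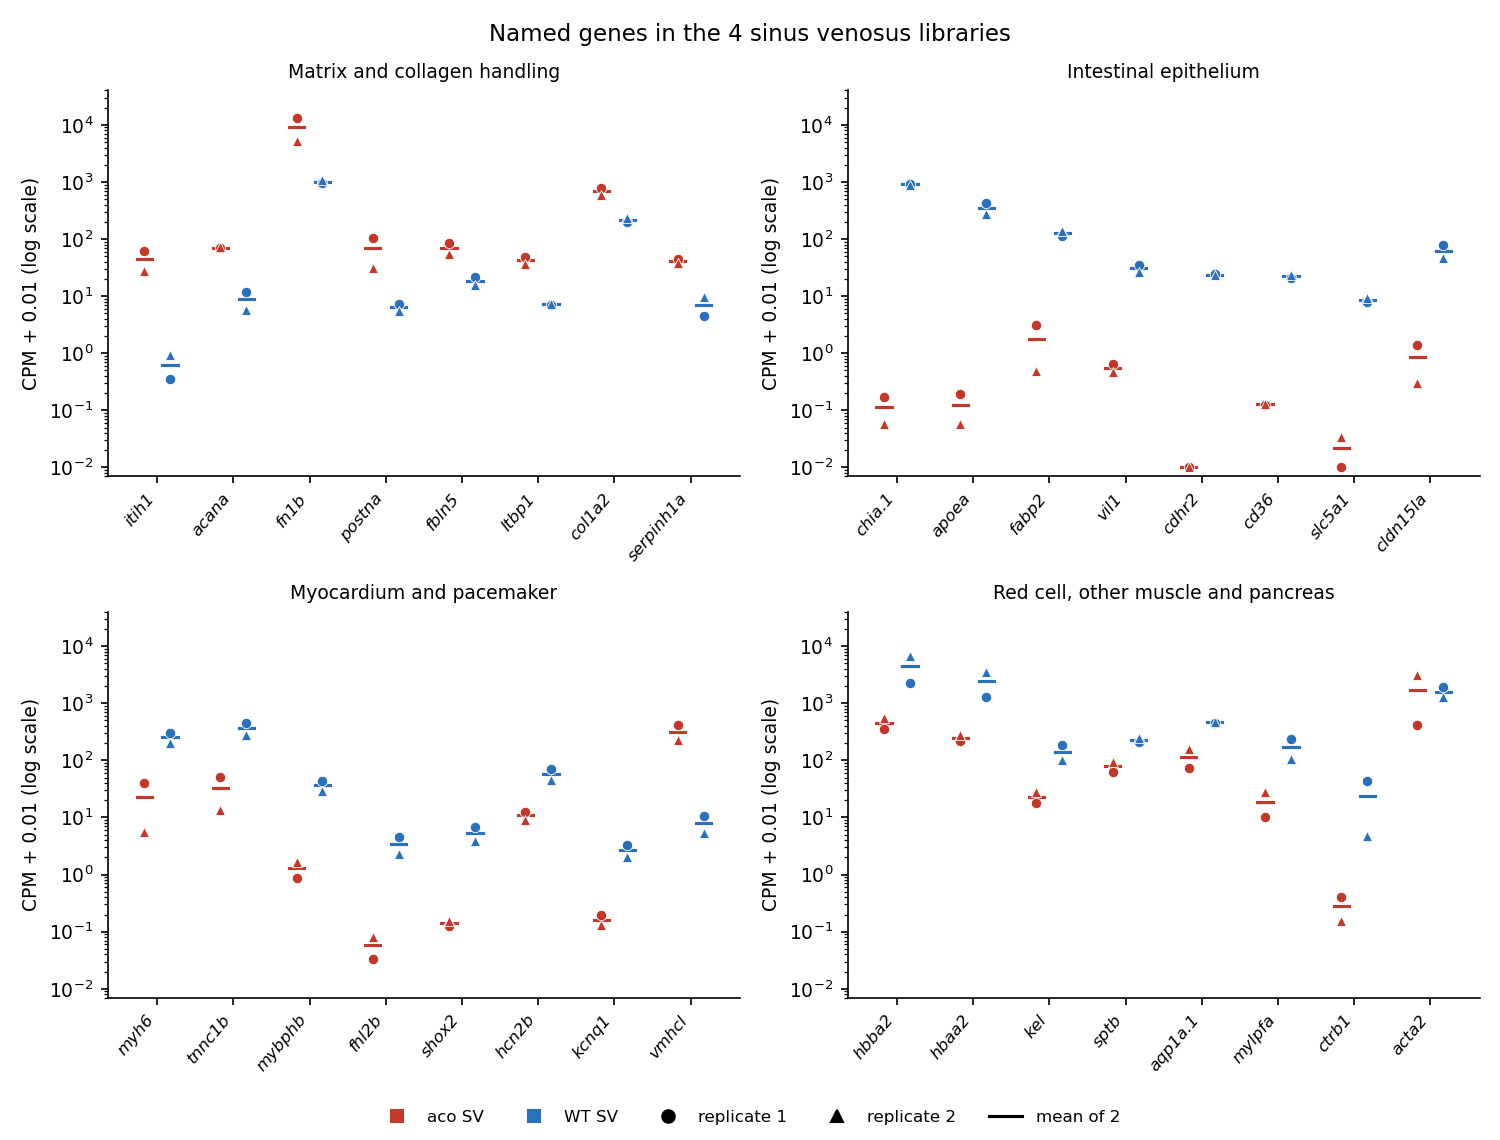
CPM plus 0.01 on a log axis for 32 genes in the 4 SV libraries, with aco SV (red) left of WT SV (blue), circles for replicate 1, triangles for replicate 2 and a bar at the mean. The intestinal genes reach at most 3.11 CPM (fabp2) in aco SV and between 7.93 and 937 CPM in WT SV, while the matrix genes lie higher in both aco SV libraries.

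Genes of atrial myocardium were lower in aco SV, while a ventricular myosin gene was higher. The atrial myosin heavy chain gene myh6 had 39.7 and 5.51 CPM in aco SV, against 304 and 202 CPM in WT SV (-5.02 ± 0.46, adjusted p = 0.000436). The level was 1645 and 8450 CPM in WT atrium. The troponin C gene tnnc1b had 51.3 and 13.6 CPM in aco SV, against 452 and 277 CPM in WT SV (-4.26 ± 0.50, adjusted p = 0.00168). The level was 4334 and 12050 CPM in WT atrium. Both aco SV libraries lay under both WT SV libraries, and library 1 held the larger mutant value. The sarcomere gene mybphb (myosin binding protein H) had 0.870 and 1.69 CPM in aco SV, against 43.36 and 29.6 CPM in WT SV (-4.68 ± 0.64, adjusted p = 0.00482). The LIM domain gene fhl2b had 0.0229 and 0.0722 CPM in aco SV, against 4.60 and 2.33 CPM in WT SV (-5.83 ± 0.53, adjusted p = 0.000436). These 4 genes were each highest in WT atrium among the other groups.

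The ventricular myosin heavy chain gene vmhcl ran the other way, with 408 and 226 CPM in aco SV, against 10.7 and 5.40 CPM in WT SV (5.31 ± 1.11, adjusted p = 0.0414). In FPKM, the authors' values per length of gene, vmhcl had 73.2 and 37.5 in aco SV and 1.89 and 0.909 in WT SV, and myh6 had 7.20 and 0.925 in aco SV and 54.2 and 34.4 in WT SV. On this per-length scale vmhcl was therefore above myh6 in both aco SV libraries and below it in both WT SV libraries. The ventricle libraries held 18690 and 57690 CPM of vmhcl in aco ventricle and 22120 and 106100 CPM in WT ventricle, against 169 and 37.1 CPM in WT atrium. In WT BA vmhcl had 1720 and 493 CPM, above both aco SV libraries. The vmhcl call held in only 2 of 13 alternatives, and whether ventricular tissue was taken with the aco SV was not tested.

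As a list, 41 cardiomyocyte genes had a median log2 fold change of -1.24, with 2 called lower (myh6 and tnnc1b), 1 higher (vmhcl) and 38 not called. The most abundant members were the myosin light chain genes cmlc1 and myl7. The level of cmlc1 was 797 and 148 CPM in aco SV, against 910.4 and 729 CPM in WT SV (adjusted p = 0.551). That of myl7 was 424 and 96.9 CPM in aco SV, against 652 and 393 CPM in WT SV (adjusted p = 0.517). Neither was called, both overlapped between genotypes, and aco SV library 2 was the lowest for both.

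Pacemaker and conduction genes were lower in 14 of 16 tested, and 3 were called lower and 0 higher (median, -1.76). The transcription factor gene shox2, needed for the sinus node in mice and zebrafish, had 0.115 and 0.144 CPM in aco SV, against 6.72 and 3.87 CPM in WT SV (-5.16 ± 0.60, adjusted p = 0.00167). The level was 13.8 and 13.2 CPM in WT atrium. The HCN channel gene hcn2b had 12.7 and 9.20 CPM in aco SV, against 71.8 and 44.8 CPM in WT SV (-2.49 ± 0.50, adjusted p = 0.0331). It was high in all chambers, with 189 and 438 CPM in WT atrium, 428 and 337 CPM in WT ventricle and 232 and 325 CPM in aco ventricle. The potassium channel gene kcnj5, whose mammalian product mediates slowing of the heart by acetylcholine, had 0.0229 and 0 CPM in aco SV, against 0.366 and 0.443 CPM in WT SV (adjusted p = 0.00953). This is a level of 1 read over both mutant libraries. The T-box gene tbx2b, a repressor of working myocardial genes, was not called, with 16.1 and 10.04 CPM in aco SV, against 13.5 and 12.2 CPM in WT SV (adjusted p = 0.784), and the groups overlapped.

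Of 79 voltage-gated and related channels, 3 were called lower (kcnj5 again, kcnq1 and kcnab2b) and 0 higher, with a median of -0.05. The delayed rectifier gene kcnq1 had 0.183 and 0.120 CPM in aco SV, against 3.29 and 2.05 CPM in WT SV (-4.21 ± 0.58, adjusted p = 0.00521). The level was 52.5 and 37.7 CPM in WT atrium. The potassium channel beta subunit gene kcnab2b had no read in aco SV and 0.640 and 0.675 CPM in WT SV, at least 9.34-fold lower (adjusted p = 0.0174). The level was 20.8 and 39.0 CPM in WT atrium. Of the 9 called genes of myocardium and pacemaker that fell (myh6, tnnc1b, mybphb, fhl2b, shox2, hcn2b, kcnj5, kcnq1 and kcnab2b), shox2, kcnq1, fhl2b and mybphb kept their call with each library left out. Without aco SV library 2 the calls of myh6, tnnc1b, hcn2b, kcnj5 and kcnab2b were lost (adjusted p = 0.065 to 0.161), and without aco SV library 1 those of hcn2b, kcnj5 and kcnab2b (0.0983 to 0.117). Without WT SV library 1 that of hcn2b (0.117), and without WT SV library 2 those of hcn2b and kcnab2b (0.0501 to 0.0568). The pacemaker list then had 1, 1, 2 and 2 members called without aco SV libraries 1 and 2 and WT SV libraries 1 and 2, and the channel list 1, 1, 3 and 2.

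Red cell genes were lower in aco SV. The adult globin genes hbba2 and hbaa2 were called. The gene hbba2 had 360.5 and 560.0 CPM in aco SV, against 2269 and 6666 CPM in WT SV (-3.34 ± 0.62, adjusted p = 0.023). The gene hbaa2 had 215 and 276 CPM in aco SV, against 1298 and 3578 CPM in WT SV (-3.43 ± 0.63, adjusted p = 0.022). WT SV library 2 was the highest for both, and the groups did not overlap. The most abundant globin gene, hbaa1, had 14450 and 18310 CPM in aco SV, against 39510 and 79200 CPM in WT SV and was not called (adjusted p = 0.072). Reads of near-identical globin copies may be divided between them. All 9 erythrocyte markers had negative fold changes (median, -1.51), with 2 called lower and 0 higher. They summed to 16980 and 21880 CPM in aco SV, against 47370 and 95310 CPM in WT SV. They took 2.62% and 2.92% of all counts in aco SV, against 5.74% and 10.9% in WT SV.

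In a list of 35 red cell membrane and haem genes, added after values had been seen, 7 were called lower and 0 higher (median, -1.04). The Kell metalloprotease gene kel had 17.6 and 28.0 CPM in aco SV, against 183 and 99.8 CPM in WT SV (-2.58 ± 0.38, adjusted p = 0.00672). The beta spectrin gene sptb, for the scaffold under the red cell membrane, had 62.3 and 95.5 CPM in aco SV, against 214 and 246 CPM in WT SV (-1.46 ± 0.29, adjusted p = 0.0342). It did not follow red cells alone, with 166 and 191.5 CPM in aco ventricle and 192.5 and 198 CPM in WT ventricle. There the erythrocyte markers summed to only 3317 to 6523 CPM. The water channel gene aqp1a.1, active in red cells and endothelium, had 74.1 and 158 CPM in aco SV, against 446 and 476 CPM in WT SV (-1.87 ± 0.33, adjusted p = 0.0177). The globin gene hbz had 45.4 and 129 CPM in aco SV, against 406 and 337 CPM in WT SV (-2.01 ± 0.39, adjusted p = 0.0288). Both WT SV libraries were above both aco SV libraries for all 4.

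Among the most abundant called genes were 3 more that fell. The nucleotidase-like gene nt5c2l1 had 443 and 644 CPM in aco SV, against 4186 and 2233 CPM in WT SV (-2.47 ± 0.40, adjusted p = 0.0109). The gene igfbp1a, for a binding protein of insulin-like growth factors and the 1 called of 54 vessel wall growth factor genes, had 262 and 434 CPM in aco SV, against 3174 and 1529 CPM in WT SV (-2.74 ± 0.51, adjusted p = 0.0229). The gene mibp had 144 and 308 CPM in aco SV, against 1126 and 1028 CPM in WT SV (-2.13 ± 0.46, adjusted p = 0.0463). Of these 9 genes (hbba2, hbaa2, kel, sptb, aqp1a.1, hbz, nt5c2l1, igfbp1a and mibp) none kept its call with every library left out. There was 1 called without aco SV library 1 (the others at 0.0602 to 0.267), and 7 were called without aco SV library 2 (0.0657 to 0.0672). There were 4 without WT SV library 1 (0.0546 to 0.12) and 3 without WT SV library 2 (0.0779 to 0.156). The red cell list had 1, 6, 5 and 1 members called in these fits, and the erythrocyte markers 1, 3, 2 and 0. How much blood each dissected tissue held was not measured, and its part in these values was not tested.

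Of skeletal muscle and exocrine pancreas markers, 1 and 3 were called lower. The fast muscle light chain gene mylpfa had 10.3 and 27.4 CPM in aco SV, against 232 and 108 CPM in WT SV (-2.85 ± 0.48, adjusted p = 0.0135). It was the 1 called of 11 skeletal muscle markers, all 11 of which had negative fold changes (median, -2.46). The creatine kinase gene ckma, the most abundant of them, had 281 and 37.7 CPM in aco SV, against 214 and 122.9 CPM in WT SV (adjusted p = 0.642), and the groups overlapped. It did not follow skeletal muscle alone, with 3726 to 10820 CPM in the ventricle libraries and 2303 and 5772 CPM in WT atrium. Of 12 pancreas markers 3 were called lower and 0 higher (median, -3.90). The trypsin-like gene prss59.1 had 0 and 0.265 CPM in aco SV, against 59.07 and 2.07 CPM in WT SV (adjusted p = 0.024). The like gene prss59.2 had 0 and 0.0722 CPM in aco SV, against 15.5 and 0.512 CPM in WT SV (adjusted p = 0.0272). The chymotrypsinogen gene ctrb1 had 0.389 and 0.144 CPM in aco SV, against 43.0 and 4.66 CPM in WT SV (adjusted p = 0.0202). The level of ctrb1 was higher in WT ventricle, at 321.5 and 311 CPM, and in WT atrium, at 57.3 and 266 CPM. In aco ventricle ctrb1 had 19.95 and 30.1 CPM, and in WT BA 2.37 and 1.07 CPM. For each of these 3 WT SV library 1 was far above WT SV library 2, so the level in WT SV rested on library 1. The carboxypeptidase genes cpb1 and cpa5, the most abundant pancreas markers, overlapped between genotypes. There were 1.63 and 34.4 CPM in aco SV, against 40.5 and 6.61 CPM in WT SV of cpb1 (adjusted p = 0.888). There were 9.21 and 14.5 CPM in aco SV, against 44.7 and 11.1 CPM in WT SV of cpa5 (adjusted p = 0.786).

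Single members were called in other lists. The keratin gene krt92 had 11.8 and 3.51 CPM in aco SV, against 81.0 and 40.8 CPM in WT SV (-3.73 ± 0.64, adjusted p = 0.0154), the 1 called of 19 surface epithelium markers. The gene ifit15, of the interferon-induced IFIT family, had no read in aco SV and 11.4 and 10.3 CPM in WT SV, at least 154-fold lower (adjusted p = 0.0135), the 1 called of 47 interferon response genes. The interferon list had a median of -0.62, with 34 of 47 members negative. Of these 6 genes none kept its call with every library left out. There was 1 called without aco SV library 1 (the others at 0.0597 to 0.0983) and 1 without aco SV library 2 (0.064 to 0.88). There were 3 without WT SV library 1 (0.0582 to 0.562) and 6 without WT SV library 2. Pancreas markers called were 0, 0, 1 and 6 in these fits.

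**Figure D3:**
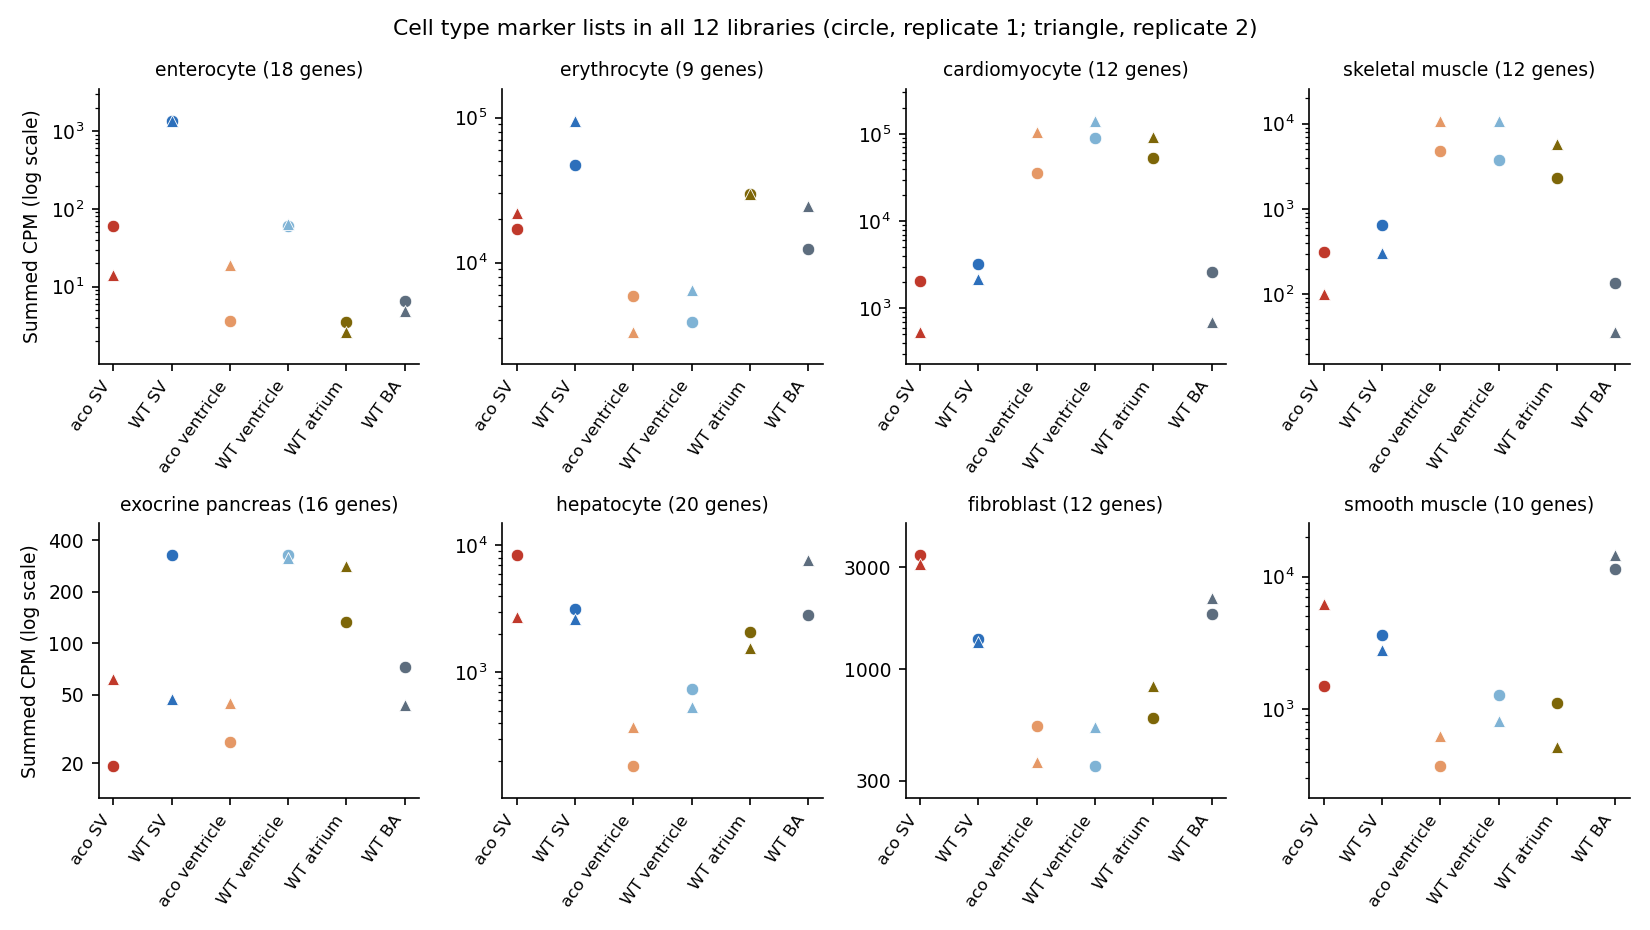
Summed CPM of 8 marker lists, on log axes, in each of the 12 libraries, with aco SV and WT SV at the left of each panel. The enterocyte sum is 61.0 and 14.2 CPM in aco SV and 1358 and 1366 CPM in WT SV, the fibroblast sum 3424 and 3114 CPM in aco SV and 1384 and 1340 CPM in WT SV, and the smooth muscle and hepatocyte sums of aco SV lie on both sides of a WT SV library.

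Of the genes called higher in aco SV, 7 were in the lists of inter-alpha-trypsin inhibitors, proteoglycans, matricellular genes, elastic fibres and collagens, and most members of these lists were not called. The inter-alpha-trypsin inhibitor gene itih1, for a heavy chain that is coupled to hyaluronan, had 61.5 and 27.5 CPM in aco SV, against 0.343 and 0.908 CPM in WT SV (5.88 ± 0.58, adjusted p = 0.000438). The level was 1390 and 1327 CPM in WT BA. The aggrecan gene acana, for a large proteoglycan that binds hyaluronan, had 69.2 and 72.4 CPM in aco SV, against 11.9 and 5.75 CPM in WT SV (3.49 ± 0.64, adjusted p = 0.0214). The level was 1118 and 1123 CPM in WT BA. Both aco SV libraries were above both WT SV libraries, and below both BA libraries, for these genes. Of 6 inter-alpha-trypsin inhibitor genes 1 was called, and all 6 had positive fold changes (median, 1.29). Of 27 proteoglycan and hyaluronan genes 1 was called higher and 0 lower (median, 0.63).

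The fibronectin gene fn1b, the most abundant gene called higher, had 13400 and 5143 CPM in aco SV, against 946 and 1063 CPM in WT SV (2.47 ± 0.40, adjusted p = 0.0107). The periostin gene postna had 105 and 31.6 CPM in aco SV, against 7.43 and 5.47 CPM in WT SV (2.62 ± 0.42, adjusted p = 0.0106). Library 1 was the higher of the aco SV libraries for both. These were the 2 called of 21 matricellular genes and fibronectins, where 0 were called lower and 9 had negative fold changes (median, 0.60, or 0.27 with genes at 0 set to their bound).

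Elastic fibre genes had 2 of 24 called higher and 0 lower, with a median of 0.63. The elastogenesis gene fbln5 (fibulin 5) had 86.8 and 55.1 CPM in aco SV, against 21.5 and 15.9 CPM in WT SV (1.65 ± 0.33, adjusted p = 0.0331). The gene ltbp1, for a protein that holds latent TGF-beta in the matrix, had 48.6 and 36.1 CPM in aco SV, against 7.07 and 7.29 CPM in WT SV (2.23 ± 0.40, adjusted p = 0.0202). The most abundant members were not called. The crosslinking enzyme gene loxl2a had 312 and 325 CPM in aco SV, against 281 and 171 CPM in WT SV (adjusted p = 0.883). The microfibril gene mfap5 had 201 and 247 CPM in aco SV, against 113 and 83.8 CPM in WT SV (adjusted p = 0.14).

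Of 43 genes listed as collagens by their symbol 1 was called higher and 0 lower (median, 0.82), with 30 of 43 positive. The list also holds col4a3bpa and col4a3bpb, which are not collagen genes. The type I collagen gene col1a2 had 787 and 587 CPM in aco SV, against 196 and 231 CPM in WT SV (1.43 ± 0.31, adjusted p = 0.0475). The gene col1a1b had 1145 and 1149 CPM in aco SV, against 488 and 526 CPM in WT SV (adjusted p = 0.123). Transcripts of the collagen list together took 0.617% and 0.466% of counts in aco SV, against 0.195% and 0.183% in WT SV. In a list of 32 collagen folding and crosslinking genes, added after values had been seen, 3 were called higher and 0 lower (median, 0.82). The collagen chaperone gene serpinh1a had 44.8 and 38.2 CPM in aco SV, against 4.57 and 9.50 CPM in WT SV (2.43 ± 0.40, adjusted p = 0.0126). The prolyl isomerase gene fkbp9 had 66.4 and 52.5 CPM in aco SV, against 19.9 and 22.5 CPM in WT SV (1.35 ± 0.28, adjusted p = 0.0427). The proline synthesis gene pycr1b had 36.9 and 28.1 CPM in aco SV, against 6.49 and 11.6 CPM in WT SV (1.69 ± 0.37, adjusted p = 0.0484). Fibroblast markers, of which col1a2 was the 1 called of 12, had a median of 1.03 and summed to 3424 and 3114 CPM in aco SV, against 1384 and 1340 CPM in WT SV. More matrix-making cells and more transcript per cell cannot be told apart.

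Of these 10 matrix genes (itih1, acana, fn1b, postna, fbln5, ltbp1, col1a2, serpinh1a, fkbp9 and pycr1b) itih1 alone kept its call with each library left out. Without aco SV library 1, 5 stayed called (the others at 0.105 to 0.187), and without aco SV library 2, 6 (0.0654 to 0.0984). Leaving out WT SV library 1 kept 2 (0.0558 to 0.274), and leaving out WT SV library 2 kept 2 (0.0862 to 0.234). Without aco SV library 1, aco SV library 2, WT SV library 1 and WT SV library 2, the elastic fibre list had 1, 1, 0 and 0 called, and the matricellular list 1, 2, 1 and 0. In the same order the proteoglycan list 1, 1, 0 and 0, the collagen list 0 in each and the folding list 1, 1, 0 and 1.

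**Figure D4:**
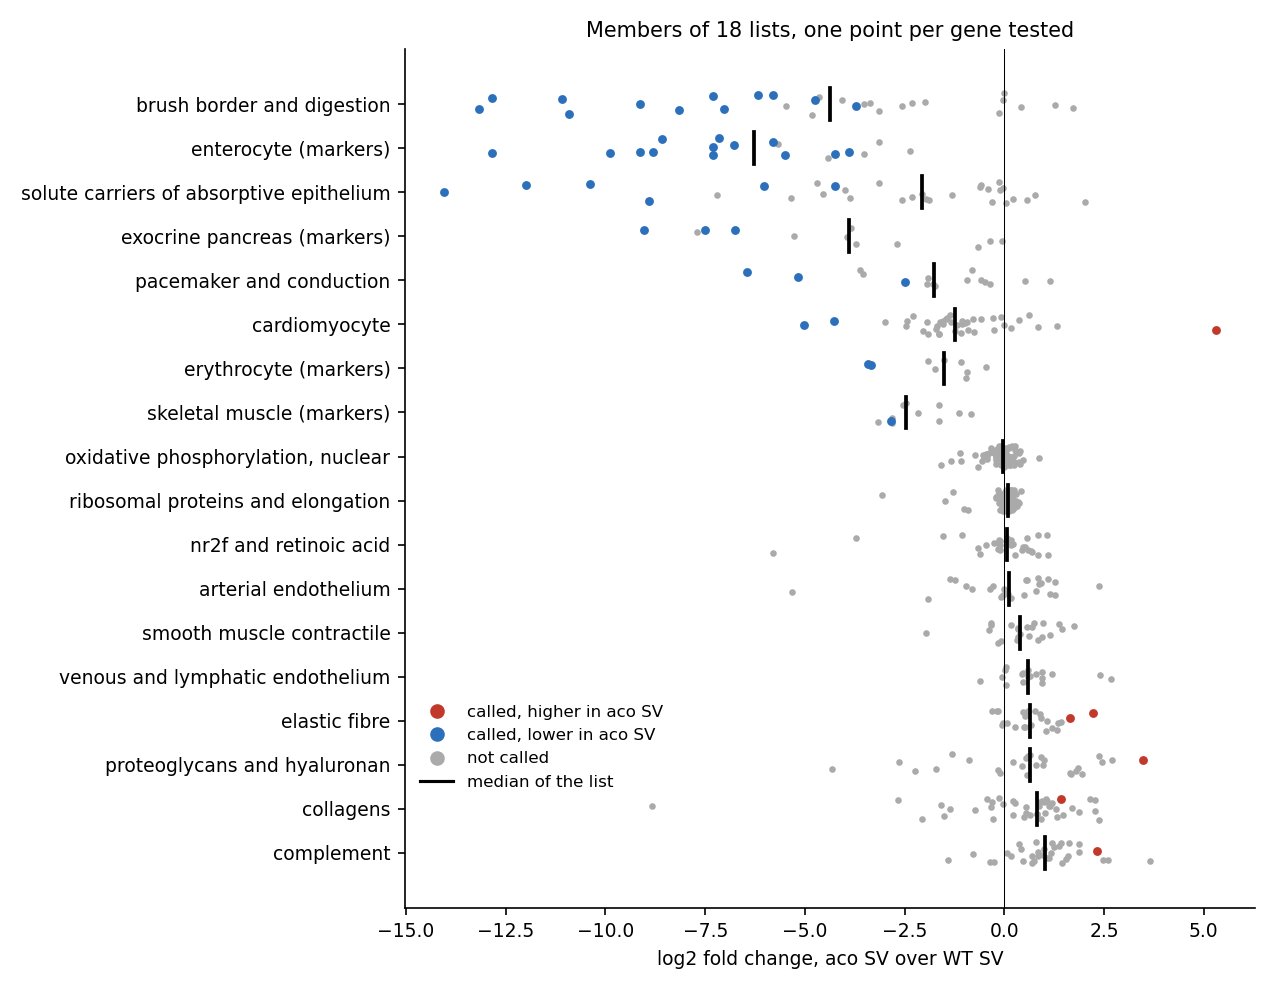
Log2 fold change of aco SV over WT SV for the tested members of 18 lists, with called genes in red (higher) and blue (lower), genes not called in grey and a black bar at the median of each list. The medians run from -6.29 for enterocyte markers to 1.03 for complement genes, and the ribosomal (0.08) and oxidative phosphorylation (-0.03) lists gather near 0.

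Other genes that rose were of varied function. The sterol exporter gene abcg1 had 17.3 and 16.2 CPM in aco SV, against 0.366 and 0.955 CPM in WT SV (4.53 ± 0.75, adjusted p = 0.0128). The ubiquitin ligase adaptor gene asb11 had 16.6 and 15.4 CPM in aco SV, against 0.938 and 1.56 CPM in WT SV (3.48 ± 0.73, adjusted p = 0.041). The gene jac2 had 39.9 and 3.996 CPM in aco SV, against 0.0229 and 0.419 CPM in WT SV (4.82 ± 0.82, adjusted p = 0.0135), with aco SV library 1 far above aco SV library 2. The secreted Wnt antagonist gene wif1 had 20.5 and 5.46 CPM in aco SV, against 1.21 and 1.21 CPM in WT SV (2.55 ± 0.37, adjusted p = 0.00674). The LIM domain gene crip2 had 169 and 49.9 CPM in aco SV, against 10.3 and 9.25 CPM in WT SV (2.90 ± 0.47, adjusted p = 0.0111). For these 5 genes aco SV lay above WT SV in both libraries, and wif1 and crip2 were higher still in WT BA, at 58.0 and 95.6 CPM and 614 and 436 CPM. In ventricle abcg1 had 2.91 and 1.54 CPM in aco and 0.0983 and 0.176 CPM in WT. There asb11 had 7.56 and 3.26 CPM in aco and 0.295 and 0.117 CPM in WT. Neither was called in ventricle (adjusted p = 0.0993 and 0.0805), nor was their difference between tissues (adjusted p = 0.832 and 0.846). The ventricle fold changes of jac2, wif1 and crip2 were 3.01, 0.81 and -0.26, none called.

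Of genes for secreted and junction proteins, wfdc2, for a protease inhibitor-like protein, had 60.0 and 29.7 CPM in aco SV, against 5.26 and 2.87 CPM in WT SV (3.41 ± 0.63, adjusted p = 0.0225). The endothelial proteoglycan gene esm1 had 14.0 and 24.1 CPM in aco SV, against 3.91 and 2.98 CPM in WT SV (2.68 ± 0.47, adjusted p = 0.0173). The claudin gene cldn11a had 31.5 and 22.8 CPM in aco SV, against 5.42 and 3.19 CPM in WT SV (2.64 ± 0.46, adjusted p = 0.0163). The complement gene c7a, for a component of the membrane attack complex, had 797 and 849.9 CPM in aco SV, against 171 and 112 CPM in WT SV (2.33 ± 0.50, adjusted p = 0.0462). It was the 1 called of 34 complement genes, 30 of which had positive fold changes (median, 1.03), and 7 of the 34 were called without aco SV library 2. The liver makes much of the complement in blood, and hepatocyte markers had positive fold changes in 16 of 20 (median, 1.16), with their highest sum in aco SV library 1. Their part in the complement values was not tested. In ventricle c7a had 351 and 111 CPM in aco and 21.6 and 39.4 CPM in WT (2.48 ± 0.55, adjusted p = 0.0883). Its difference between tissues was not called (adjusted p = 0.974). The ventricle fold changes of wfdc2, esm1 and cldn11a were -1.28, 0.32 and -0.66, none called. The endocytic receptor gene lrp1ab had 277 and 352 CPM in aco SV, against 99.0 and 81.8 CPM in WT SV (1.75 ± 0.37, adjusted p = 0.0441). The chemokine gene ccl34b.1, the 1 called of 57 chemokine and receptor genes, had 11.1 and 3.73 CPM in aco SV, against 0.938 and 0.652 CPM in WT SV (2.49 ± 0.47, adjusted p = 0.024). With vmhcl these made 12 genes, of which none kept its call with every library left out. There were 4 called without aco SV library 1 (the others at 0.0548 to 0.199) and 8 without aco SV library 2 (0.0774 to 0.159). There were 3 without WT SV library 1 (0.0534 to 0.219) and 1 without WT SV library 2 (0.0568 to 0.299).

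The smooth muscle contractile, arterial, venous and lymphatic, and pan-endothelial lists had no call, as was so for 29 of the 58 lists examined (by edgeR, with 0 to 13 members of each at an unadjusted p below 0.05 and 0 to 2 called by DESeq2). Smooth muscle contractile genes had 0 of 23 called by edgeR (6 higher and 0 lower at an unadjusted p below 0.05, and 1 higher by DESeq2), with a median of 0.39. The actin gene acta2 had 409 and 3076 CPM in aco SV, against 1915 and 1271 CPM in WT SV. The gene tagln had 434 and 1897 CPM in aco SV, against 997 and 994 CPM in WT SV. For both the aco SV libraries lay on both sides of the WT SV libraries and differed from each other more than the genotypes did. Of arterial endothelial genes 0 of 26 were called (4 higher and 2 lower at an unadjusted p below 0.05, 0 by DESeq2, median 0.12). Among them notch1b, a Notch receptor gene of arterial endothelium, had 82.3 and 155 CPM in aco SV, against 135 and 123.4 CPM in WT SV (adjusted p = 0.976). The endothelial claudin gene cldn5b had 158 and 204 CPM in aco SV, against 38.0 and 39.3 CPM in WT SV (log2 fold change 2.37 ± 0.99, adjusted p = 0.308). Of venous and lymphatic genes 0 of 18 were called (5 higher and 0 lower at an unadjusted p below 0.05, and 1 higher by DESeq2), with a median of 0.59 and 16 of 18 positive. The hyaluronan receptor gene stab2 of this group had 59.4 and 81.0 CPM in aco SV, against 18.3 and 38.4 CPM in WT SV (adjusted p = 0.457). Of pan-endothelial genes 0 of 20 were called (2 higher and 2 lower at an unadjusted p below 0.05, and 1 each way by DESeq2), and their median was 0.33.

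Of 31 genes of the nr2f family and retinoic acid signalling 0 were called (0 higher and 1 lower at an unadjusted p below 0.05, 0 by DESeq2), with a median of 0.07. The retinoic acid synthesis gene aldh1a2 had 282 and 208 CPM in aco SV, against 78.3 and 114 CPM in WT SV (1.102 ± 0.53, adjusted p = 0.394), with both aco SV libraries the higher. Of 21 hox genes 0 were called (0 at an unadjusted p below 0.05 and 0 by DESeq2), although the median was 0.50. The gene hoxb3a had 12.96 and 9.61 CPM in aco SV, against 7.02 and 3.89 CPM in WT SV (adjusted p = 0.742). Of 38 tested genes among the 20 on each side of nr2f1a, taken by name from the GRCz12tu annotation, 0 were called (2 higher and 3 lower at an unadjusted p below 0.05, and 1 lower by DESeq2), with a median of -0.02.

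General cell functions had no call. Oxidative phosphorylation had 0 of 89 genes called (0 higher and 1 lower at an unadjusted p below 0.05, 0 by DESeq2) and a median of -0.03. Ribosomal proteins and elongation factors had 0 of 91 called (0 at an unadjusted p below 0.05 and 0 by DESeq2) and a median of 0.08. Cell cycle genes had 0 of 45 called (0 at an unadjusted p below 0.05 and 0 by DESeq2), with 38 of 45 positive and a median of 0.38. The replication clamp gene pcna had 116 and 133 CPM in aco SV, against 109 and 142 CPM in WT SV (adjusted p = 1), and the groups overlapped. The ribosomal stalk gene rplp0 had 5272 and 6263 CPM in aco SV, against 6312 and 6707 CPM in WT SV (adjusted p = 0.874), close together in all 4 libraries.

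In the 8 libraries that the comparison did not use, the genes called lower and higher had different places of highest level. Of the 239 genes lower in aco SV, 38 (15.9%) were at or below 3 counts in every library of the other tissues. The share of all genes tested was 2.07%. Genes at this floor elsewhere entered the test through the SV libraries, and genes called lower were higher in WT SV by selection. Part of the excess is therefore set by the filter and the call. Of the 38, cdhr2, fabp1b.1, guca2b and pdzk1 had 0 reads in all 8. Among aco ventricle, WT ventricle, WT atrium and WT BA, the mean CPM was highest in WT atrium for 92 of the 239 (38.5%, against 21.0% of all genes), as for myh6, mybphb and kcnq1. Of the 56 genes higher in aco SV, 32 were highest in WT BA (57.1%, against 32.6% of all genes), as for itih1, acana and fbln5, with 569 and 666 CPM of fbln5 in WT BA. A further 16 were highest in aco ventricle (28.6%, against 21.8%). These shares are descriptions with no test.

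Some genes followed the genotype in both mutant tissues. Chosen after values had been seen, LOC100006764, zgc:194221, si:ch211-208h16.4 and LOC101885686 had at most 3 counts in each of the 4 aco libraries of SV and ventricle and more than 10 counts in each of the 8 WT libraries. LOC100006764 had no read in the aco libraries and 0.851 to 3.09 CPM in the WT libraries. It was called in SV (at least 41.9-fold lower, adjusted p = 0.00192) and in ventricle (adjusted p = 0.0114). zgc:194221 had no read in the aco libraries either and 0.614 to 1.55 CPM in the WT libraries. There were calls in SV (adjusted p = 0.0092) and ventricle (adjusted p = 0.0351). The other 2 were called in SV (adjusted p = 0.00953 for si:ch211-208h16.4 and 0.024 for LOC101885686). In ventricle they were not called (adjusted p = 0.0518 and 0.151). Of all genes, 1.54% were called in SV and 0.272% in ventricle. All 4 genes were chosen for low counts in aco and higher counts in WT, so their calls are no further support. With 1 SV library left out LOC100006764 stayed called in each fit. The others lost their call without aco SV library 1 (0.0676 to 0.0909), and LOC101885686 also without aco SV library 2 (0.093), WT SV library 1 (0.0661) and WT SV library 2 (0.0831). In the opposite direction, LOC103910966 had 0.458 and 0.289 CPM in aco SV, against 0.0457 and 0 CPM in WT SV in SV and was called in neither tissue (adjusted p = 0.317 in SV).

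The genotype effect differed between SV and ventricle, by a test of the difference of the 2 fold changes in the same fit, for 38 of 19145 genes (0.198%), 34 of them lower and 4 higher in the SV relative to the ventricle. The matrix genes itih1, acana and fbln5 rose in the SV, while in the ventricle their fold changes were -1.84 ± 0.53, -1.92 ± 0.61 and -1.18 ± 0.34, none of them called (adjusted p = 0.164, 0.202 and 0.17). For itih1 the difference, SV minus ventricle, was 7.72 ± 0.74 (adjusted p = 0.0027), for acana 5.41 ± 0.84 (adjusted p = 0.0417) and for fbln5 2.82 ± 0.46 (adjusted p = 0.0426). In ventricle itih1 had 0.794 and 1.26 CPM in aco and 3.14 and 2.94 CPM in WT, a low level in both.

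Of genes lower in the SV, cd36 differed most clearly, with a fold change of 1.15 ± 0.47 in the ventricle and a difference of -8.75 ± 0.68 (adjusted p = 0.000971). The LIM domain gene fhl2b had 6.28 and 12.4 CPM in aco ventricle and 5.92 and 3.26 CPM in WT ventricle, and a difference of -7.38 ± 0.63 (adjusted p = 0.00129). The atrial myosin gene myh6 fell in both tissues, with a fold change of -3.61 ± 0.43 in the ventricle (adjusted p = 0.0104), where it had 14.7 and 6.74 CPM in aco and 23.2 and 121 CPM in WT. Its difference between tissues was not called (-1.40 ± 0.54, adjusted p = 0.331). The number of genes with a called difference was 11 without aco SV library 1, 19 without aco SV library 2, 15 without WT SV library 1 and 17 without WT SV library 2, and 5 without the RUVs factor. Of 14 named genes with a called difference, apoa4b.1, apoea, cd36, fhl2b and itih1 kept it in each fit with an SV library left out. In the ventricle apoa4b.1 and apoea were at most at 0.411 CPM in any library, so a fall there could not have been seen. For acana it was lost without WT SV library 1 (0.0698) and WT SV library 2 (0.152), and for fbln5 in all 4 (0.075 to 0.224).

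**Figure D5:**
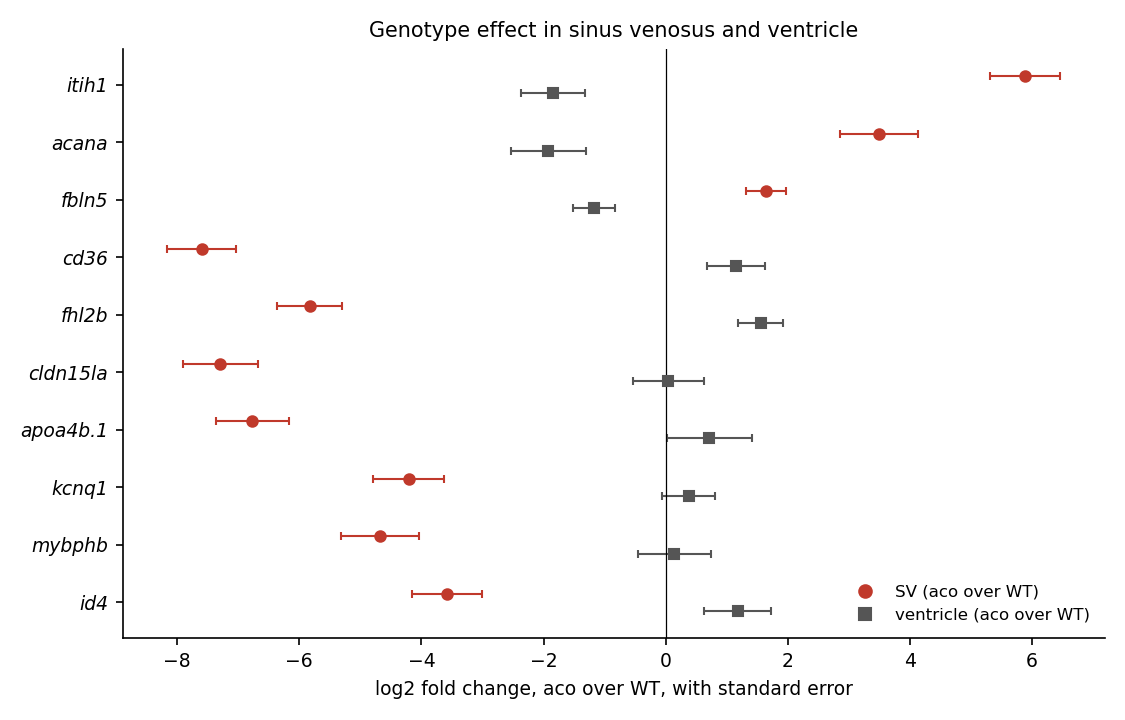
Log2 fold change of aco over WT, with its approximate standard error, for 10 genes. SV is shown by red circles and ventricle by grey squares, with 2 libraries per genotype in each. itih1, acana and fbln5 lie above 0 in SV and below 0 in ventricle, and the other 7, of which id4 at -3.57 is nearest to 0 in SV, lie below 0 in SV and above 0 in ventricle. None of the 10 was called in ventricle, where cldn15la (0.04 ± 0.58) and mybphb (0.14 ± 0.60) could not be told from 0.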

How the data were processed

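Per the study's methods, adapters were removed with cutadapt, STAR placed the reads on danRer11, and uniquely placed reads were counted per gene with featureCounts. The authors deposited these raw counts for 22158 genes. The FPKM values that the authors deposited are scaled by DESeq2 size factors and were used only to compare levels between genes. The deposited fold changes, p-values and group means of the authors' own comparisons were not used. Spreadsheet dates stand in place of 13 gene names.

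The counts were filtered with edgeR's filterByExpr, which left 19145 genes, scaled by TMM and fitted over all 12 libraries in 1 quasi-likelihood model of the 6 groups and 1 factor of unwanted variation (the RUVs method recoded in R, k = 1, all filtered genes as controls), with edgeR 4.0.16 in R 4.3.3. P-values are two-sided and adjusted by Benjamini-Hochberg, and genes below 0.05 are called. CPM in the text use TMM-scaled library sizes. A group at 0 was given a floor of 3 counts per library. Floors and counting intervals (exact, 95%, on summed counts) cover counting error only, since reads carry no molecular identifiers. A permutation of 2 against 2 libraries cannot give a two-sided p below 0.333.

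Replicate numbers come from the titles. Same-numbered SV libraries did not deviate together (r = -0.15 over 2 pairs), so no block was used. Alternatives were no RUVs factor, DESeq2 1.42.0, the replicate block, other filters, other size factors, no mitochondrial genes, the SV libraries alone and each SV library left out. The steps were tested on simulated counts. They recovered most large changes and few small ones, and where unwanted variation was simulated, the share of false calls was above the nominal 0.05.

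The gene lists, 36 by function and 20 of cell type markers, and the members of the comparison were chosen with earlier results of these data known, and 2 lists were added after values had been seen. Named are the 12 genes with the largest fold change in each direction (not overlapping, mean CPM of at least 5 in the higher group, no provisional symbol), the 6 most abundant called genes in each direction, up to 6 called and the 2 most abundant members of each list, nr2f1a, and the 4 smallest p in each direction for SV against ventricle. The genes vil1, tm4sf5, rbp2a, ugt1ab, mybphb, kel, sptb, aqp1a.1, hbz, serpinh1a, fkbp9, pycr1b, id4, rgs6, those in Other observations and those without a full symbol fall outside it and were chosen after their values were seen. The rule also takes 1 gene that is not reported here.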

Additional observations from a re-analysis of the deposited data

Results flagged for a closer look

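For 38 genes the genotype effect differed between SV and ventricle (adjusted p below 0.05, edgeR's test of the difference, all 12 libraries). The values below are log2 fold changes of aco over WT in SV minus those in ventricle, with approximate standard errors. Each group had 2 libraries.

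The matrix genes had positive differences, with 7.72 ± 0.74 for itih1 (adjusted p = 0.0027), 5.41 ± 0.84 for acana (adjusted p = 0.0417) and 2.82 ± 0.46 for fbln5 (adjusted p = 0.0426). For these 3 genes both aco SV libraries were above both WT SV libraries.

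Genes of absorptive epithelium had negative differences, with -11.75 ± 1.78 for slc13a2 (adjusted p = 0.0417), -11.48 ± 1.45 for apoea (adjusted p = 0.0129), -8.75 ± 0.68 for cd36 (adjusted p = 0.000971), -8.46 ± 1.28 for apoa4a (adjusted p = 0.041), -7.48 ± 0.85 for apoa4b.1 (adjusted p = 0.00853) and -7.34 ± 0.80 for cldn15la (adjusted p = 0.00741). In the 4 ventricle libraries slc13a2, apoea, apoa4a, apoa4b.1 and cldn15la lay between 0 and 1.23 CPM, so a fall there could not have been seen, and the sizes of these 5 differences rest on fitted values near 0. In ventricle, slc13a2 had 0.265 and 0.0274 CPM in aco and 0 and 0 CPM in WT. The gene cd36 had 4.60 and 3.15 CPM in aco and 1.62 and 1.58 CPM in WT.

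Genes that were high in WT atrium also had negative differences, with -7.38 ± 0.63 for fhl2b (adjusted p = 0.00129), -4.82 ± 0.81 for mybphb (adjusted p = 0.0468), -4.58 ± 0.71 for kcnq1 (adjusted p = 0.0417), -4.89 ± 0.83 for rgs6 (adjusted p = 0.0468), a regulator of G protein signalling, and -4.75 ± 0.76 for id4 (adjusted p = 0.0417), an inhibitor of helix-loop-helix factors. The gene rgs6 had 0.183 and 0.0722 CPM in aco SV, against 0.617 and 0.745 CPM in WT SV, with 8.04 and 3.15 CPM in aco ventricle and 0.639 and 1.204 CPM in WT ventricle. The gene id4 had 0.366 and 0.433 CPM in aco SV, against 5.65 and 3.54 CPM in WT SV, with 1.97 and 1.56 CPM in aco ventricle and 0.467 and 1.03 CPM in WT ventricle.

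With an SV library left out, 7 of the 14 named differences stayed called without aco SV library 1, 7 without aco SV library 2, 6 without WT SV library 1 and 7 without WT SV library 2, and 5 stayed called in all 4 of these fits.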

How the results depend on the processing

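The count of called genes, 295 in SV (239 lower and 56 higher), moved with most choices, while the direction of each of the 295 did not in any alternative that tested it. Without the RUVs factor 138 genes were called (125 lower and 13 higher), with DESeq2 in place of edgeR 1011 (695 lower and 316 higher) and with the 4 SV libraries alone 38 (38 lower and 0 higher). With the replicate block in place of the factor 61 were called (57 lower and 4 higher), and with the replicate block beside it 138 (119 lower and 19 higher). The pairing crossed in place of the factor, chosen after seeing the data, gave 149 (130 lower and 19 higher). Other filters, size factors and the removal of mitochondrial genes kept the counts within 1.5 times. With 1 SV library left out the total ranged from 119 to 171, those lower from 95 to 152 and those higher from 4 to 67.

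The 38 differences between SV and ventricle became 5 without the factor, 599 with DESeq2, 2 with the replicate block in place of the factor, 9 with it beside the factor and 3 with the pairing crossed. They became 10 with a mean CPM of at least 1, 10 with DESeq2 size factors and 10 without mitochondrial genes, and 11 to 19 with an SV library left out. With a floor of 10 counts, 60 in place of 38 of the lower genes were at or below it in all other tissues.

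Of 98 called genes listed for the text, 8 were called in all 13 alternatives, 32 in at least 10 and 35 in fewer than 7, and none reversed. Genes below about 3 counts per library, 0.0686 to 0.0722 CPM in the SV libraries, cannot be told from 0 at this depth.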

Other observations

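The cholinergic genes chata and ache were among the lower ones in aco SV. The choline acetyltransferase gene chata, for the enzyme that makes acetylcholine, had 0 and 0.0963 CPM in aco SV, against 5.42 and 2.05 CPM in WT SV (adjusted p = 0.0401), and the acetylcholinesterase gene ache had 4.42 and 3.30 CPM in aco SV, against 12.7 and 8.66 CPM in WT SV (-1.64 ± 0.35, adjusted p = 0.0464), with 107 and 139 CPM in WT atrium. Neither kept its call in any of the 4 fits with an SV library left out. Of 17 neuron and glia markers 0 were called by edgeR (0 higher and 2 lower at an unadjusted p below 0.05, and 1 lower by DESeq2), with a median of -0.54. The genes bmp5 (1.72 and 1.54 CPM in aco SV, against 10.22 and 6.54 CPM in WT SV, -2.34 ± 0.48, adjusted p = 0.0365) and fgf13a (4.92 and 1.59 CPM in aco SV, against 12.5 and 8.36 CPM in WT SV, -2.42 ± 0.44, adjusted p = 0.0202) were lower as well, and fgf13a was at its highest in WT atrium, at 20.8 and 73.4 CPM. The call of bmp5 was lost in all 4 fits with a library left out (adjusted p = 0.0728 to 0.226), and that of fgf13a stayed only without WT SV library 2 (0.0209, the others 0.0792 to 0.311). The pancreas and duodenum transcription factor gene pdx1, which the study reports as enriched in the SV and in smooth muscle, also fell. It had 0.298 and 0.313 CPM in aco SV, against 5.85 and 4.03 CPM in WT SV (-4.01 ± 0.61, adjusted p = 0.00791). With 1 SV library left out its log2 fold change was -4.32 to -3.73. The call of pdx1 held in 9 of 13 alternatives, and those that lost it included fits with an SV library left out.

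Immune cell markers leaned higher in aco SV with no call. Of 13 macrophage markers 12 had positive fold changes (median, 0.66), of 8 neutrophil markers all 8 (median, 0.91) and of 10 lymphocyte markers 8 (median, 0.94). By edgeR 0 of them were called, with 0, 1 and 0 at an unadjusted p below 0.05 in the 3 lists and 0 by DESeq2. The antigen presentation gene cd74a, the most abundant macrophage marker of the lists, had 313 and 530.4 CPM in aco SV, against 310.1 and 324 CPM in WT SV (adjusted p = 0.555), and the groups overlapped. Thrombocyte markers leaned lower, with 7 of 8 negative (median, -1.12) and 0 called by edgeR (1 higher and 3 lower at an unadjusted p below 0.05, and 2 lower by DESeq2).

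Some genes higher in aco SV were higher still in WT BA. The gene lsp1 had 46.9 and 21.4 CPM in aco SV, against 6.04 and 8.55 CPM in WT SV (1.90 ± 0.39, adjusted p = 0.0393) and 122.8 and 79.0 CPM in WT BA. For fhl3b there were 13.3 and 22.3 CPM in aco SV, against 5.46 and 4.26 CPM in WT SV (1.93 ± 0.39, adjusted p = 0.0331) and 246 and 356 CPM in WT BA. For tmem119b there were 16.9 and 47.7 CPM in aco SV, against 11.2 and 10.6 CPM in WT SV (1.72 ± 0.31, adjusted p = 0.0184) and 192 and 143 CPM in WT BA. The call of lsp1 stayed only without aco SV library 2 (0.0352, the others 0.147 to 0.228), and those of fhl3b (0.0474, the others 0.119 to 0.231) and tmem119b (0.023, the others 0.12 to 0.355) only without aco SV library 1. The dynein heavy chain gene dnah7, of motile cilia, was higher in both mutant tissues, with 3.82 and 1.40 CPM in aco SV, against 0.160 and 0.0932 CPM in WT SV (3.90 ± 0.72, adjusted p = 0.0277), and 6.45 and 9.98 CPM in aco ventricle, against 0 and 0 CPM in WT ventricle (adjusted p = 0.00856). The SV call of dnah7 stayed only without aco SV library 2 (0.0235, the others 0.0917 to 0.201).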
